A study of Homo sapiens with 8 samples.

Results

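Of 3840 genomic regions with HIF-1β sites in 4 cancer cell lines, 330 held a site of exactly 2 lines in a combination other than T47D with HCT-116. These regions were chosen by the measured peaks: a site of a line was the whole span of overlapping peaks from both its replicates. Overlapping sites of different lines were joined into 1 region, and a region was kept where exactly 2 lines had a site. Their number, their pair of lines and the presence of their peaks therefore describe the choice and carry no test. The 330 regions were 8.59% of the merged regions, and they fell into 5 pairs of lines. PC-3 shared 95 regions with HCT-116 (2.47% of all merged regions), A549 shared 86 with HCT-116 (2.24%), PC-3 shared 62 with A549 (1.61%), T47D shared 46 with A549 (1.20%) and PC-3 shared 41 with T47D (1.07%). The left-out combination, T47D with HCT-116, held 356 regions.

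The study measured HIF-1β binding by ChIP-seq, in which chromatin bound by an antibody target is precipitated and its DNA sequenced. PC-3 is a prostate cancer line, T47D an oestrogen receptor positive breast cancer line, A549 a lung cancer line and HCT-116 a colorectal cancer line. All 8 libraries, 2 per line, came from cells held at 0.5% oxygen for 16 hours, and the same HIF-1β antibody was used in each. Normoxic cells and control libraries were not analysed here, so a peak cannot be told apart as induced or constitutive. The authors deposited peak intervals on GRCh37 with a score for each peak, between 1042 and 3790 peaks per library. Reads were not used here, so the sequencing depth behind a peak is unknown. Nothing in the labels says whether the replicates of a line came from separate cultures. RNA was not measured in the files used here, so the identity of the lines was not checked against marker genes.

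HIF-1β is the partner that HIF-1α and HIF-2α need to bind DNA, and the dimer recognises the core sequence RCGTG, in which R is A or G. The α subunits are destroyed in oxygenated cells and accumulate in hypoxia, where the dimers activate genes of glycolysis, angiogenesis, pH regulation and many other functions. Many HIF sites lie in chromatin that other factors, such as the AP-1 dimers of JUN and FOS proteins, have already opened in a given cell type. AP-1 binds TGANTCA, usually with C or G at N, and is known for its place at enhancers.

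The sequences below show the core motif inside the strongest regions of each pair, with 30 bases on either side, so that a reader can see what each pair of lines shared. They are from GRCh37, 5′ to 3′, and capitals mark every RCGTG match on either strand (CACGY is its reverse complement, Y being C or T). For each pair they come from the first 2 of its 6 highest-scoring regions that held the motif in the central 400 bp outside a UTR.
JUN region, chr1:59221329-59221389, plus strand: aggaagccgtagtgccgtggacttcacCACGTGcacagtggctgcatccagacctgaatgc
FTH1 region, chr11:61812758-61812818, plus strand: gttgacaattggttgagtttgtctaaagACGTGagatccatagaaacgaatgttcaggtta
SLC45A1 region, chr1:8262401-8262461, minus strand: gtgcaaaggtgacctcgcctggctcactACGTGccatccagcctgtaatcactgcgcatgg
MEGF6 region, chr1:3426902-3426962, minus strand: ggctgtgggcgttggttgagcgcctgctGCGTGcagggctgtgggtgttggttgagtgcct
EYA2 region, chr20:45588241-45588301, plus strand: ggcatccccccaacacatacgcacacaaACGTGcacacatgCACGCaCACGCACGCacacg
LPCAT1 region, chr5:1568697-1568757, minus strand: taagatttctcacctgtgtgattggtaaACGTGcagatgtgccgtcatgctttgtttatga
PPP1R3C region, chr10:93393056-93393116, minus strand: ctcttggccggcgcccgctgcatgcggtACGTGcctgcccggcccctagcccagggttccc
KLHDC4 region, chr16:87823745-87823805, minus strand: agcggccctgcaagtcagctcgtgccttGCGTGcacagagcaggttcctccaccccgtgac
OR1I1 region, chr19:15183914-15183974, plus strand: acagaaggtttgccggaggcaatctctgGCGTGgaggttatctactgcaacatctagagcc
MFSD4A region, chr1:205512750-205512810, minus strand: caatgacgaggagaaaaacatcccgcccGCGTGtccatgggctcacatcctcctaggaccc
The first pair of sequences is from regions of PC-3 and HCT-116, and the following pairs are from A549 and HCT-116, PC-3 and A549, T47D and A549, and PC-3 and T47D. The JUN region holds the palindrome CACGTG, an E-box that matches the core on both strands, and the EYA2 region holds 4 matches in 61 bases.

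A region is called here by the protein-coding gene whose transcription start lies nearest, which is a label of position and not of regulation. The places of the regions were mostly away from promoters. Of the 330 regions, 89 (27.0%, 95% exact binomial interval 22.3 to 32.1%) lay within 2 kb of a protein-coding transcription start, 91 were centred in introns, 6 in exons and 144 outside protein-coding genes. Over all merged regions of the main chromosomes, 48.9% lay within 2 kb of a start. The median distance from a region to the nearest start was 16565 bp, and 89 regions lay more than 50 kb from one. Median GC content was 49.0% and the median ratio of observed to expected CpG was 0.299.

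Against the 355 regions of T47D with HCT-116 on the main chromosomes, of which 303 (85.4%, interval 81.2 to 88.9%) lay within 2 kb of a start, the odds of a promoter position were lower in the 5 pairs (odds ratio 0.0634, two-sided Fisher's exact test, p = 5.30e-57). The regions were called from the same 8 libraries, so this p and those that follow cover counting error over regions and not the spread between cultures. The T47D/HCT-116 regions had a median GC content of 60.2% and a median CpG ratio of 0.753. Where a library was left out, any single peak of the line's other replicate counted as a site, which loosens the definition for that line. Without replicate 1 of PC-3 the number of regions in the 5 pairs rose to 668 and their promoter share to 41.3%, with an odds ratio of 0.117.

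**Figure D1:**
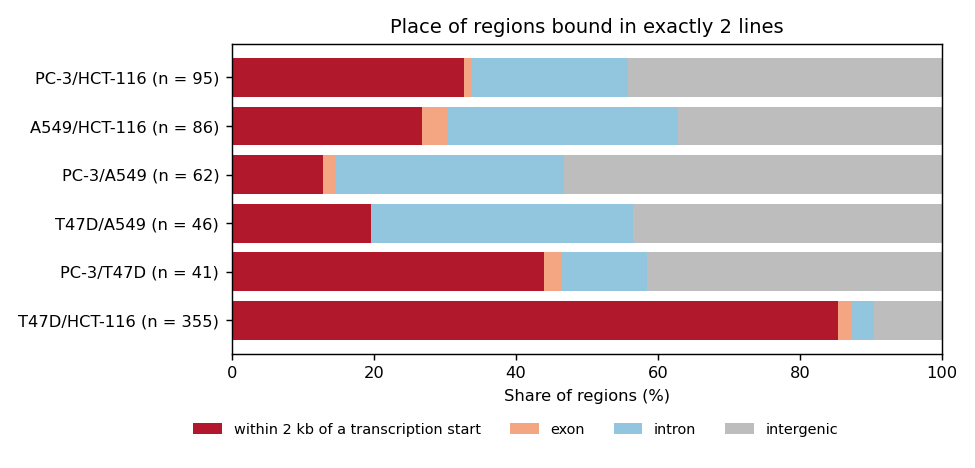
The share of regions (%, horizontal axis) in each place is drawn for the 5 pairs and for T47D/HCT-116, with the number of regions beside each name. The promoter share ran from 12.9% for PC-3/A549 to 43.9% for PC-3/T47D and was 85.4% for T47D/HCT-116.

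The pairs differed among themselves in promoter position. PC-3/A549 regions had the lowest share, 8 of 62 (12.9%, interval 5.74 to 23.9%), with odds below those of the other 4 pairs (odds ratio 0.342, two-sided Fisher's exact test, p adjusted by Benjamini-Hochberg over 5 pairs = 0.0322). PC-3/T47D regions had the highest, 18 of 41 (43.9%, interval 28.5 to 60.3%), with odds above those of the other pairs (odds ratio 2.40, adjusted p = 0.0342, same exact test). The shares were 31 of 95 (32.6%) for PC-3/HCT-116, 23 of 86 (26.7%) for A549/HCT-116 and 9 of 46 (19.6%) for T47D/A549, and none of these passed the test against the other pairs (adjusted p = 0.284, 1 and 0.354, exact test). The median distance to a start was 38632.5 bp for PC-3/A549 and 2971 bp for PC-3/T47D.

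Both calls were lost with the higher-scoring 50% of each list and where no replicate of the other lines was allowed a peak (adjusted p = 0.0542 and 0.169 for PC-3/A549, 0.203 and 0.395 for PC-3/T47D, Fisher's exact test). The PC-3/T47D call was also lost without replicate 2 or replicate 3 of A549 (odds ratio 2.16 and 1.73) and without replicate 2 or replicate 3 of HCT-116 (2.22 and 1.21). Conversely, PC-3/HCT-116 passed the test without replicate 1 of PC-3 (1.51) and without replicate 3 of HCT-116 (1.73), as did T47D/A549 in the other direction (0.283 and 0.238).

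The 330 regions took up unequal parts of the lines' own sites. They held 198 of 970 PC-3 sites (20.4%), 194 of 1041 A549 sites (18.6%), 181 of 1757 HCT-116 sites (10.3%) and 87 of 2065 T47D sites (4.21%). The overlap of both lines' sites had a median of 1171.5 bp, or 81.8% of the region, and its lowest value was 590 bp, so none of these regions rested on touching edges.

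Scores are given as deposited and, since the files do not explain their scale, as percentiles within each library's own list. The mean percentile over the 4 libraries of a pair had a median of 62.5 in the 330 regions, against 51.2 in regions of 1 line and 82.2 in regions of all 4 lines. A percentile depends on the list it is taken in, and the lists of replicates 1 and 2 of PC-3 held 1042 and 2891 peaks. Percentiles of these 2 replicates can therefore not be compared as measures of binding. Whether list length, depth or another trait of a library set their difference was not tested. In PC-3/A549 regions the median percentile was 52.6 in replicate 1 and 83.5 in replicate 2, and in PC-3/T47D regions it was 45.4 and 80.3. In PC-3/HCT-116 regions it was 81.8 in replicate 2 and 63.4 in replicate 3 of HCT-116. In each of the 3 pairs with PC-3 the median was higher in replicate 2, the longer list of that line. Scores and percentiles of different lines, given side by side below, likewise do not rank the lines by strength of binding.

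**Figure D2:**
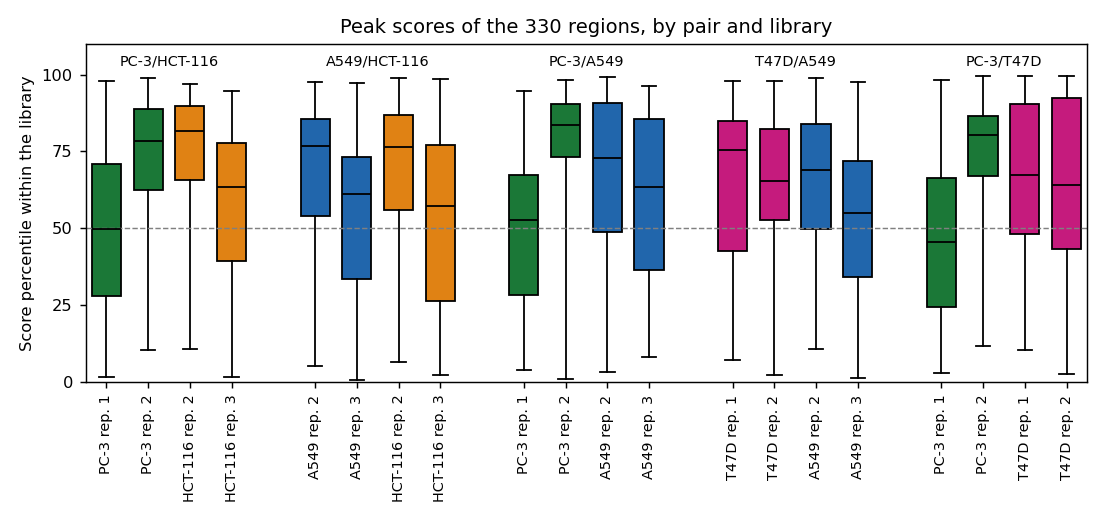
Boxes show the score percentile within the library (vertical axis, 0 to 100) of the regions of each pair in the 4 libraries that define it, with the median as a line, the quartiles as the box and whiskers to the extremes. Replicate 2 of PC-3 has higher medians than replicate 1 in each of its 3 pairs, and the dashed line marks percentile 50.

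Absence of a site was not always absence of a peak. At 188 of the 330 regions (57.0%) neither replicate of the other 2 lines had a peak, and at 142 (43.0%) a single replicate of at least 1 of those lines had one. The latter share was 34.8% in regions of 1 line, 57.7% in T47D/HCT-116 regions and 35.9% in all merged regions of the main chromosomes. The last share includes regions of all 4 lines, which have no other line. Replicate 2 of PC-3 had a peak at 61 of the 132 regions without a PC-3 site (46.2%), and replicate 1 at 3 of them. At the T47D/HCT-116 regions the share for replicate 2 of PC-3 was near this, 166 of 355 (46.8%). Replicate 2 of HCT-116 had one at 35 of 149 (23.5%) and replicate 3 at 3, replicate 2 of A549 at 27 of 136 (19.9%) and replicate 3 at 10, and the replicates of T47D at 11 and 18 of 243. The longer list of each uneven line thus supplied most of these peaks. In A549/HCT-116 regions, replicate 2 of PC-3 had a peak at 44 of 86 (51.2%), with a median score of 106.67, against 3 for replicate 1.

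The members nearest the limit were those at RMND5A, PIM1 and ATAD2, whose lowest single scores were 50.06, 50.35 and 50.36 in lists that begin at 50.01. Just outside it, 911 of 2615 regions of 1 line had a peak in a single replicate of another line, and the highest-scoring such peaks were at ALCAM (286.54, PC-3 replicate 2), OR4D9 (279.21, HCT-116 replicate 2) and DDX42 (277.2, HCT-116 replicate 2).

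**Figure D3:**
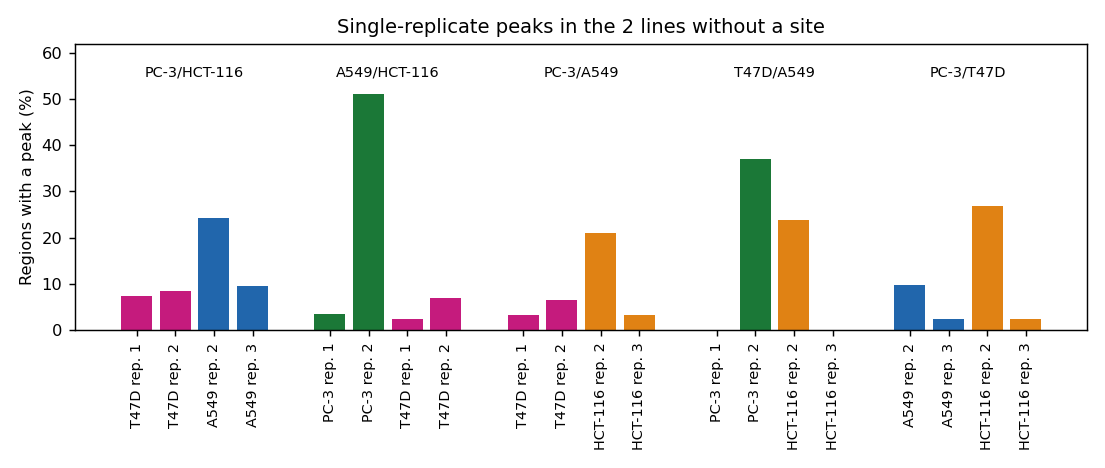
Bars give the share of regions (%, vertical axis) at which each replicate of the 2 lines without a site had a peak of its own. The highest bars are replicate 2 of PC-3, 44 of 86 A549/HCT-116 regions and 17 of 46 T47D/A549 regions, against 3 and 0 for replicate 1 of PC-3.

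The core motif RCGTG was present somewhere in 328 of the 330 regions, with a median of 4 copies counted on both strands. In the central 200 bp it was present in 221 (67.0%, interval 61.6 to 72.0%), against 20.8% of windows of that width 5 kb to either side and 65.7% of the centres of all merged regions. The 330 regions thus stood close to merged regions in general on this measure. The share was 79.0% (interval 66.8 to 88.3%) in PC-3/A549 regions, 67.4% in T47D/A549, 66.3% in PC-3/HCT-116, 61.6% in A549/HCT-116 and 25 of 41 in PC-3/T47D, and the intervals of these shares overlap.

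The AP-1 motif TGANTCA, a palindrome whose ends can overlap RCGTG, was present in the central 200 bp of 75 regions (22.7%, interval 18.3 to 27.6%). It was present in 5.45% of the flanking windows, in 13.3% of the centres of all merged regions and in 2.54% of T47D/HCT-116 centres. The pairs fell into a higher and a lower set by this measure. The share was 32.3% (interval 20.9 to 45.3%) in PC-3/A549, 27.9% (18.8 to 38.6%) in A549/HCT-116 and 25.3% (16.9 to 35.2%) in PC-3/HCT-116, but 12.2% (4.08 to 26.2%) in PC-3/T47D and 4.35% (0.531 to 14.8%) in T47D/A549. Both pairs with T47D were thus below the 3 pairs without it, although the interval of PC-3/T47D overlaps theirs, and T47D/A549 centres held the motif at about the share of their own flanks (5.43%).

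The promoter share differs between the pairs, so the same was read within regions more than 2 kb from a start. There the share was 35.2% of 54 PC-3/A549 regions, 32.8% of 64 PC-3/HCT-116 regions and 31.7% of 63 A549/HCT-116 regions, against 13.0% of 23 PC-3/T47D regions and 2.70% of 37 T47D/A549 regions. In the left-out combination, T47D/HCT-116, it was 5.77% of 52 such regions (interval 1.21 to 15.9%). The share over all merged regions was not split in this way. Both motifs occurred together in the central 200 bp of 51 regions, of which 18 were PC-3/A549, 16 PC-3/HCT-116, 13 A549/HCT-116, 2 T47D/A549 and 2 PC-3/T47D. The joint share was not taken over all merged regions. Taken singly, RCGTG was in 67.0% and TGANTCA in 22.7% of the 330 centres. The joint counts therefore do not show that the motifs pair more often than these separate shares give. GGGCGG, the GC box bound by SP1 and common in CpG-rich promoters, was present in 14.5% of the centres, against 55.5% of T47D/HCT-116 centres and 31.9% of all. The GGGCGG shares were not read apart from promoter position, in which these sets differ. In all, 10 motifs were searched. GGAATG, the TEAD motif, was present in 18.2% of the 330 centres, 10.2% of their flanking windows and 12.4% of all merged centres. The shares of the other motifs are not given. These matches are descriptions of the letters and no test was made of them.

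**Figure D4:**
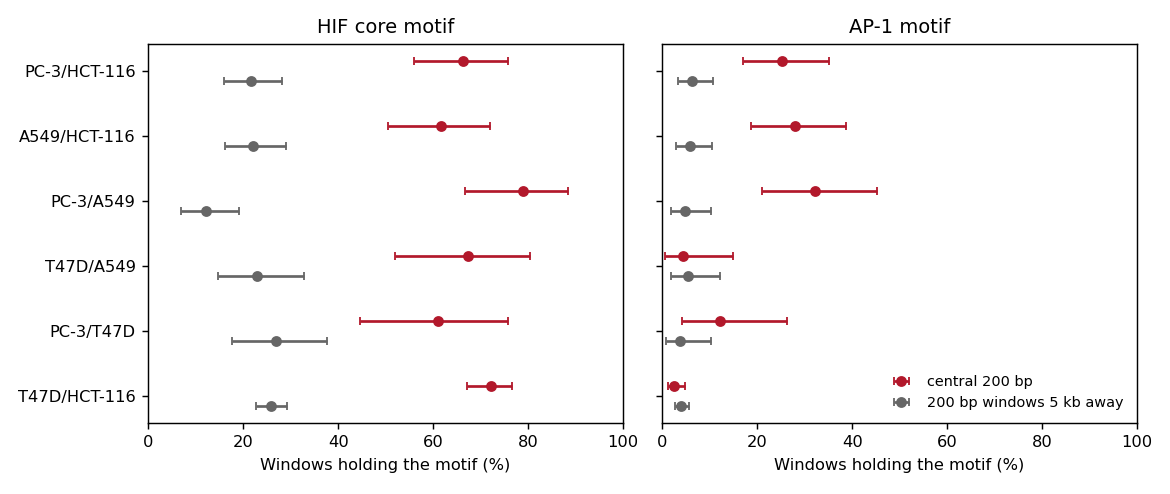
Points show the share of 200 bp windows (%, horizontal axes) that hold the HIF core motif (left) and the AP-1 motif (right) at the centre of the regions and 5 kb to either side, with 95% exact binomial intervals. The central AP-1 share is between 25.3% and 32.3% in the 3 pairs without T47D and between 2.54% and 12.2% in the 3 with it, T47D/HCT-116 included. Promoter and distal regions are drawn together, and the pairs differ in promoter share.

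The sequences below show both motifs together, from regions near genes of the lists described further on, and were selected after the values were seen. Capitals mark RCGTG on either strand and TGANTCA, the sequences run 5′ to 3′ on the plus strand of GRCh37, and 10 bases are shown beyond the outer match.
CA9 region, chr9:35673838-35673921: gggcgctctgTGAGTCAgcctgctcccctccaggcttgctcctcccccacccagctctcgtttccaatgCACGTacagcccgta
CA12 region, chr15:63664723-63664761: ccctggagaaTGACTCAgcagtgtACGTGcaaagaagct
AXL region, chr19:41731797-41731830: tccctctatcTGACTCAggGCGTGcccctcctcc
ITGB1 region, chr10:33294678-33294717: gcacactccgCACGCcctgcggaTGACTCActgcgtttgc
ANXA2 region, chr15:60667089-60667118: gccctgggctACGTGAGTCAcagaagagct
The CA9 region was shared by T47D and A549 and the other 4 by A549 and HCT-116. In the ANXA2 region the motifs overlap, in the AXL region 2 bases lie between them, in the CA12 region 7, in the ITGB1 region 8 and in the CA9 region 52.

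Regions were ranked within each pair by the mean score percentile over its 4 libraries, and the named regions come from the 6 highest of each. The strongest of PC-3 with HCT-116 lay beside genes of endocytosis, transcription and iron storage, mostly at a distance. The first was at chr15:84047267-84049527, 66566 bp from the start of SH3GL3, which encodes an endophilin of the synaptic vesicle and membrane-bending family. Its scores were 472 and 859.7 in replicates 1 and 2 of PC-3 and 802 and 445 in replicates 2 and 3 of HCT-116, and it had no RCGTG in its central 200 bp.

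The second, at chr1:59220548-59222179, lay 27540 bp from the start of JUN, an AP-1 subunit. It scored 692 and 1073 in PC-3 and 655 and 343 in HCT-116, with a single further peak of 89.05 in replicate 2 of A549. All 4 defining scores were at or above percentile 89.5 of their lists, so neither line was marginal here. The region at FTH1, the ferritin heavy chain, was intergenic, 76557 bp from the start, and scored 361 and 671 in PC-3 and 490.1 and 296 in HCT-116, with no peak in A549 or T47D. A region at ACSM6, of the acyl-CoA synthetase family, scored 509.8 and 800.3 in PC-3 and 441 and 209 in HCT-116. IGF2BP2, which encodes an RNA-binding protein, held its region in an intron, with scores of 300.2 and 587 in PC-3 and 513 and 241 in HCT-116.

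Promoter regions of this pair, named after their values were seen, were led by SGSM2, MGAT5B, BHLHE41, HMGA2, PAM and DST, with mean percentiles from 84.7 for SGSM2 to 71.8 for DST. HMGA2 encodes an architectural chromatin protein and DST the cytoskeletal linker dystonin.

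A549 with HCT-116 shared its strongest region at chr1:8261406-8263242, 114932 bp from the start of SLC45A1, a sugar transporter. It scored 885 and 834 in replicates 2 and 3 of A549 and 1097 and 695 in HCT-116, and neither PC-3 nor T47D had a peak there. A second region near the same gene ranked 20th of the 86. MEGF6, which encodes an EGF-repeat protein, held an intronic region with scores of 662 and 321 in A549 and 1626 and 615 in HCT-116, and 19 copies of RCGTG over 1868 bp.

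GSE1 and ITGB1 followed with intronic regions and with a peak of PC-3 replicate 2 besides, of 176 at GSE1 and 182 at ITGB1. ITGB1, the β1 integrin subunit of the receptors for collagen, laminin and fibronectin, scored 699 and 347 in A549 and 275 and 366 in HCT-116. TMCC1, a membrane protein of the endoplasmic reticulum, was the promoter region among the 6, with scores of 341 and 319 in A549 and 743 and 384 in HCT-116. The sixth region lay 97069 bp from PRAG1, a pseudokinase, and a further region near PRAG1 ranked 16th. After TMCC1, the promoter regions of this pair were led by HPCAL1, HM13, TNFRSF10D, a decoy receptor of TRAIL, and AXL, a receptor tyrosine kinase.

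PC-3 with A549 shared mostly distal regions, and its strongest, at chr20:45587217-45589172, lay in an intron of EYA2, a transcriptional coactivator and phosphatase. It scored 525 and 1130.0 in PC-3 and 811 and 434 in A549, and neither HCT-116 nor T47D had a peak. A region 43949 bp from LPCAT1, an enzyme of phosphatidylcholine remodelling, scored 185 and 592 in PC-3 and 815 and 646 in A549, and T47D with A549 shared another region near that gene, with scores from 54.03 to 133.6.

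The next regions were at SPDYE17, a member of a family of near-identical copies in which reads may be shared, and at SUMF1, the enzyme that activates sulphatases. PLIN2, the coat protein of lipid droplets, had its region 11917 bp from the start, with scores of 132 and 291 in PC-3 and 537 and 485 in A549 and a peak of 56 in replicate 2 of HCT-116. The sixth lay 425941 bp from MAF, a basic leucine zipper transcription factor, and held RCGTG and TGANTCA at its centre. Its A549 scores (581 and 493) were above its PC-3 scores (145 and 214). The 8 promoter regions of the pair were led by SYTL2, RAP2B, RPH3AL, KPNA7 and CNNM1, of which SYTL2 and RPH3AL encode effectors of Rab GTPases in vesicle traffic.

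NDRG1, a hypoxia- and stress-responsive gene, was the nearest gene to 3 PC-3/A549 regions, more than any other gene had. They lay 17728, 53273 and 79270 bp from its start with mean percentiles of 57.0, 62.6 and 57.0. In the same order, they lay 52493, 15692 and 3709 bp from a region of all 4 lines, so the locus was not bound in PC-3 and A549 alone. The middle of the 3 scored 52.92 and 108 in PC-3, the first close to the lower limit of its list, but 488 and 341 in A549, so its mean joins a low and a high value.

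T47D with A549 shared its strongest region at chr10:93392294-93393813, at the promoter of PPP1R3C, which targets protein phosphatase 1 to glycogen and so promotes glycogen synthesis. It scored 697 and 1023 in T47D and 855 and 797 in A549, all at or above percentile 97.0 of their lists, and it held 7 copies of RCGTG, with neither PC-3 nor HCT-116 having a peak. A region 23192 bp from KLHDC4 scored 578 and 581 in T47D and 1738 and 882 in A549. The region at RIOK1, a kinase of ribosome assembly, scored 853 and 923 in T47D and 285 and 173 in A549. Those scores stood at percentiles 97.9 and 97.5 of the T47D lists and 85.1 and 75.7 of the A549 lists.

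MYC and MYOF were each nearest to more than 1 region of T47D/A549. MYC, the growth-promoting transcription factor, was the nearest gene to regions 132150 and 138646 bp away with mean percentiles of 85.1 and 46.7, and MYOF, a membrane repair protein, held both of its regions in introns. The first MYC region scored 608 and 879 in T47D and 381 and 108 in A549. The regions at CACNA1B, a neuronal calcium channel subunit, and at CYP2A7, of the cytochrome P450 family, completed the 6, and CACNA1B had 28 copies of RCGTG over 2111 bp. After PPP1R3C, the promoter regions were led by FAM107B, PPFIBP2, RSRC2, CA9 and NME1, with mean percentiles from 70.8 down to 47.5.

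PC-3 with T47D shared the highest-scoring region of all 330 by mean percentile (99.3), at chr19:15182932-15184912, 8110 bp from the start of OR1I1, an olfactory receptor gene. It scored 889 and 2451 in PC-3 and 1946 and 2357 in T47D, and neither replicate of A549 or HCT-116 had a peak there. Its central window held RCGTG, and the sequence printed above has the GCGTG form.

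The region 24586 bp from MFSD4A, a transporter-like gene, scored 363 and 744 in PC-3 and 347 and 371 in T47D. GADD45B, a stress-response gene, had a region 12501 bp away with scores of 183 and 253 in PC-3 and 545 and 571 in T47D. The formyl peptide receptor locus held 2 neighbouring regions, within FPR3 and ZNF577, and both scored higher in T47D (430.2 to 635) than in PC-3 (126 to 365). The sixth was beside F8A2, 1 of several near-identical copies on chromosome X, so its reads may belong to another copy. Beyond FPR1, promoter regions were led by CIART, a circadian repressor, BTG1, an antiproliferative gene, PTPRJ, a receptor phosphatase, MIDEAS and CGGBP1.

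Of these 30 regions, 6 for each pair, 3 lay within 2 kb of a start, 24 held RCGTG and 4 TGANTCA in the central 200 bp, and 22 had no peak of either replicate in the other lines. In the same order, the shares over the 330 regions were 27.0, 67.0, 22.7 and 57.0%. Over all merged regions of the main chromosomes they were 48.9, 65.7, 13.3 and 64.1%. The 30 were chosen by score, and no test was made of these counts.

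Genes were also read from 15 lists of HIF targets and lineage or pathway genes. Of 184 listed genes in the annotation, 23 (12.5%) had 1 of the 330 regions within 25 kb, against 2.18% of the 20136 protein-coding genes. For comparison, 63.0% of the listed genes had any merged region within 25 kb, against 24.4% of all, and 25.5% had a region of all 4 lines, against 2.25% of all. The 23 genes shared 23 regions, since KRT8 and KRT18 lie beside the same region and FOSL1 has 2. The regions were 10 of A549/HCT-116, 7 of PC-3/HCT-116, 5 of T47D/A549, 1 of PC-3/A549 and 0 of PC-3/T47D.

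Of the 20 genes of the glycolysis list, 16 had a region of all 4 lines within 25 kb and 1 (5%) a region of the 5 pairs, in an intron of SLC2A3, which encodes the glucose transporter GLUT3. That A549/HCT-116 region scored 227 and 191 in A549 and 237 and 118 in HCT-116 and lay 10156 bp from a region of all 4 lines. No gene of the lists for mitochondria and mitophagy (9 genes), matrix and collagen (14), intestinal genes (11), NRF2 targets (10), AHR targets (7) and growth and cell cycle (9) had 1, and lists this short would hold few or none at the share of all genes.

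The adhesion and mesenchymal list had 5 of 16 genes beside a region of the 5 pairs and 0 beside a region of all 4 lines. Over all protein-coding genes these shares were 2.18% and 2.25%, so 16 genes would hold few or none of the latter. Any merged region lay beside 9 of the 16 (56.25%), against 63.0% of all listed genes. No difference between lists was tested, and the lists were chosen with earlier results of these data known. AXL, ITGB1 and ANXA2, an annexin of the plasma membrane, were beside A549/HCT-116 regions, and CAV2, a caveolin, and ITGB4, the laminin-binding β4 integrin, beside PC-3/HCT-116 regions. AXL, at its promoter, scored 547 and 322 in A549 and 115 and 55.66 in HCT-116, and ANXA2, also at its promoter, scored 284 and 171 in A549 and 144 and 51.92 in HCT-116. In both genes replicate 3 of HCT-116 was near the lower limit of its list. The ITGB4 region lay in an intron of SAP30BP, 19781 bp from ITGB4. It scored 54.14 in replicate 3 of HCT-116, again near that limit.

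The list of AP-1 and YAP-TEAD genes had 4 of 13. These were JUN and FOSL1, both AP-1 subunits, with PC-3/HCT-116 regions, JUNB, a further AP-1 subunit, with an A549/HCT-116 region inside HOOK2, and AMOTL2, a regulator of YAP, with a T47D/A549 region. The regions near FOSL1 lay 10339 and 14217 bp from the gene, and both held TGANTCA at the centre. The nearer scored 225 and 589 in PC-3 and 239 and 148 in HCT-116.

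The pH list had 2 of 6, both carbonic anhydrases that hydrate carbon dioxide at the cell surface. CA9, a gene widely used as a marker of hypoxia, had its promoter region in T47D/A549, with scores of 57.82 and 82.32 in T47D, 190 and 208 in A549 and a peak of 52.08 in replicate 2 of HCT-116. CA12 had an intronic region in A549/HCT-116, with scores of 445 and 245 in A549 and 146 and 131 in HCT-116 and a peak of 88.66 in replicate 2 of PC-3. The CA9 scores stood at percentiles 17.8 and 45.4 of the T47D lists and 75.6 and 80.2 of the A549 lists. In replicate 1 of T47D the CA9 score was near the lower limit of the list.

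The secreted and angiogenic list had 4 of 18, of which 3 are described. ANGPTL4, an inhibitor of lipoprotein lipase, and EDN1, the vasoconstrictor endothelin-1, had T47D/A549 regions, and LIF, a cytokine of the interleukin-6 family, had an A549/HCT-116 region. The ANGPTL4 region lay in an intron of RAB11B, 19917 bp from ANGPTL4. EDN1 scored 914 and 1057 in T47D but 162 and 80.17 in A549. LIF scored 294 and 156 in A549 and 619.5 and 217 in HCT-116, and PC-3 and A549 shared a further region 49523 bp from its start.

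The remaining lists held 7 genes. Histone demethylases had 2 of 8, KDM4C with the highest HCT-116 scores of any listed gene (2043 and 1152, against 235 and 148 in A549) and JMJD6 near a PC-3/HCT-116 region at the promoter of MXRA7. Stress and mTOR genes had 2 of 8, DDIT4, an inhibitor of mTORC1, with scores of 683 and 367 in A549 and 201 and 139 in HCT-116, and NDRG1. Luminal epithelial genes had 2 of 21, the keratins KRT8 and KRT18, whose shared region scored 688 and 848 in T47D and 133 and 60.61 in A549. Oxygen sensing and HIF feedback had 1 of 14, BHLHE41, a repressor of the circadian clock, whose promoter region scored 149 and 555 in PC-3 and 385 and 130 in HCT-116 and held 17 copies of RCGTG. Single-replicate peaks of T47D (86.27) and A549 (62.39) also lay at BHLHE41.

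**Figure D5:**
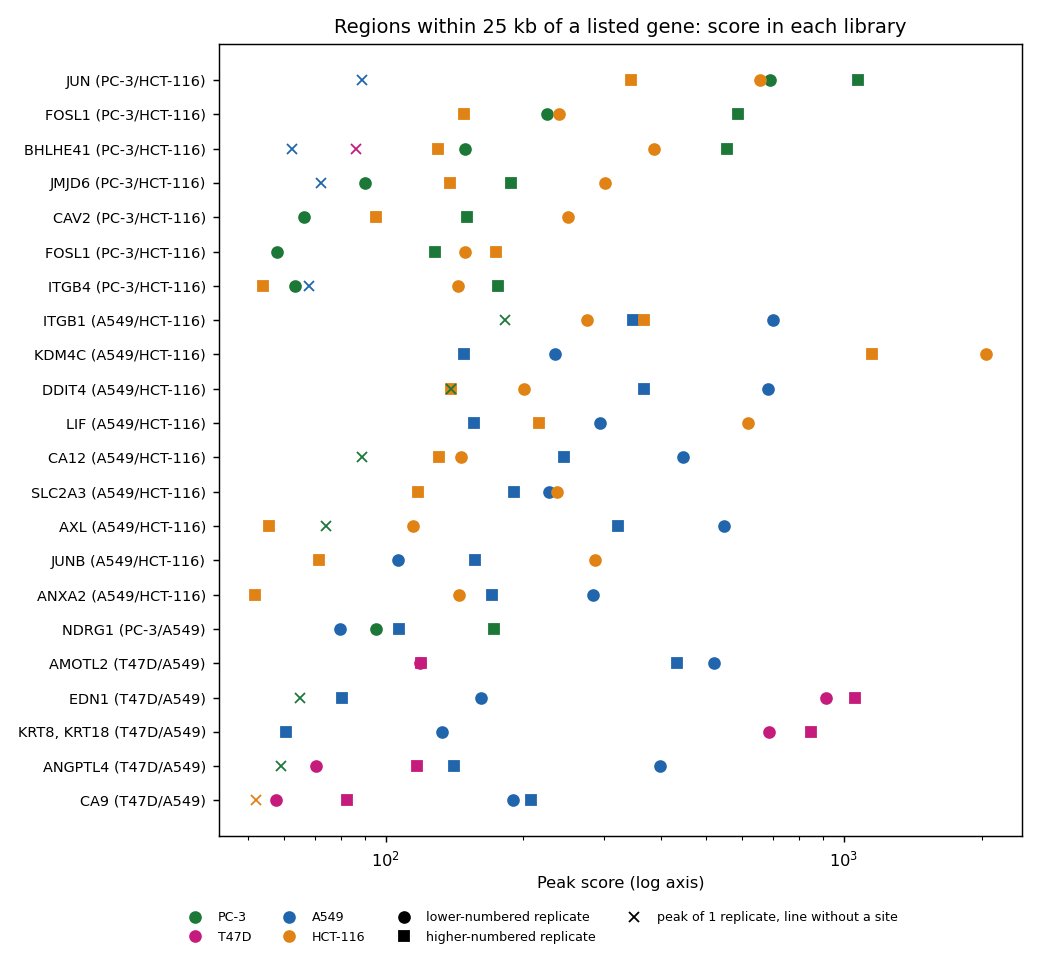
Each row is 1 of 22 regions within 25 kb of a listed gene, with the peak score (log axis) in the 4 libraries of its pair and crosses for a peak of 1 replicate in a line without a site. The scores of both lines lie far apart at KDM4C (2043 and 1152 in HCT-116, 235 and 148 in A549), EDN1 and KRT8/KRT18.

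Several of these genes also had a region of all 4 lines within 25 kb, namely SLC2A3, ANGPTL4, JUNB, KDM4C and DDIT4. Over the 330 regions, 21 (6.36%) lay within 100 kb of a region of all 4 lines, against 5.99% of all merged regions, so closeness to regions of all 4 lines was near the background.

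The 330 regions named 310 nearest genes, 19 of which were nearest to more than 1 region. For 12 of those the regions belonged to different pairs. LRP5, a Wnt co-receptor, had a PC-3/A549 and a T47D/A549 region in its introns. SLC6A6, the taurine transporter, had an intronic PC-3/A549 region with scores of 983 and 472 in A549. It also had a T47D/A549 region at its promoter with scores of 55.29 and 56.90 in A549. That promoter region had single-replicate peaks of PC-3 (73.26) and HCT-116 (105.75), both above its A549 scores. The intronic region had 1 of HCT-116 (103.9).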

How the data were processed

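HIF-1β ChIP-seq peak lists of PC-3, T47D, A549 and HCT-116 cells, with 2 replicates per line, were grouped by the line in the labels. The submitters' processing notes name Trim Galore 0.3.3, BWA 0.7.5a-r405, SAMtools 0.1.19, Picard 1.106, bedtools 2.17.0 and MACS, whose version is not given in the sources used here. The authors called peaks in each library separately and deposited 1 score per peak, whose scale the files do not explain, so scores were turned into percentiles within a list. A filter by the peak caller T-PIC, named in the study's methods, cannot be seen in the lists. Reads were not used, so depth is unknown.

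Peaks of both replicates of a line that overlapped, by 1 bp or more, were joined, and their whole span was a site of that line. Sites of the 4 lines were joined in the same way. For the printed sequences, the first 2 eligible regions of each pair were taken, leaving out 1 chromosome. Of 3840 regions, 3837 on the main chromosomes were annotated with GENCODE release 44 on GRCh37, and the other 3, none of them a member, were not. A promoter was within 2 kb of a protein-coding start, measured from the region's edge. Motifs were searched on both strands in the reference sequence.

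Shares have 95% exact binomial intervals, and promoter shares were compared by two-sided Fisher's exact test with Benjamini-Hochberg adjustment over the 5 pairs. The named regions are the 6 of each pair with the highest mean percentile and those within 25 kb of a listed gene. A few regions that fall under this rule are not reported here. Promoter regions, repeated genes and sequences with both motifs were added after the values were seen. The members and lists were chosen with earlier results of these data known. Alternatives changed the overlap, the score limit, the replicates, the promoter width, the motif window and the gene distance. Leaving out a library also dropped the need for peaks of both replicates in that line. The merging was tested on simulated data, where all 1500 planted regions were recovered, and bedtools 2.31.1 found the same number of sites in all 4 lines. Python 3.11.15, NumPy 2.4.6, SciPy 1.17.1, pysam 0.24.0, Matplotlib 3.10.9 and samtools 1.23.1 were used.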

Additional observations from a re-analysis of the deposited data

How the results depend on the processing

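The lower odds of a promoter position in the 5 pairs than in T47D/HCT-116 kept their direction and passed the test under all alternatives, with odds ratios from 0.0568 without replicate 2 of T47D to 0.117 without replicate 1 of PC-3 among the fits that left out a library. The number of regions moved most. It was 183 with the higher-scoring 50% of each list (63, 47, 29, 26 and 18 for PC-3/HCT-116, A549/HCT-116, PC-3/A549, T47D/A549 and PC-3/T47D), 874 with a peak of either replicate (283, 145, 218 and 160 for the pairs other than T47D/A549, which stayed within 1.5 times) and 188 with no peak of any replicate in the other 2 lines (55, 39, 24 and 27 for the pairs other than PC-3/A549). With 1 library left out, each peak of the line's other replicate counted as a site, so these counts also reflect a looser definition. The number of regions then ran from 335 to 668, and by pair, in the order above, from 72 to 257, 42 to 136, 49 to 164, 29 to 87 and 30 to 176. The highest count came without replicate 1 of PC-3 for all but A549/HCT-116 and T47D/A549, where it came without replicate 3 of A549.

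The promoter share was 32.9% with a peak of either replicate, 21.8% with no peak elsewhere, 34.8% within 5 kb and 26.5 to 41.3% with 1 library left out. The central RCGTG share was 84.8% in 400 bp and 99.4% over the whole region. Listed genes within 10 kb numbered 12.

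For the odds ratio of each pair against the other 4, PC-3/A549 gave 0.185 with the higher-scoring 50% and 0.299 with no peak elsewhere, both no longer past the test, and PC-3/T47D gave 2.67 and 1.63 likewise. PC-3/HCT-116 passed the test with a peak of either replicate (1.99). T47D/A549 turned to 1.39 with the higher-scoring 50%, and A549/HCT-116 turned to 1.10 with no peak elsewhere, neither past the test. With 1 library left out the ratios ran from 1.17 to 1.73 for PC-3/HCT-116, 0.483 to 1.30 for A549/HCT-116, 0.162 to 0.358 for PC-3/A549, 0.238 to 1.25 for T47D/A549 and 1.21 to 3.88 for PC-3/T47D. The causes of these changes were not tested. No paired analysis was possible because the tests compare regions and not libraries. Without reads, a missing peak cannot be read as missing binding, and a short list limits what both replicates can show.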
